A study of Homo sapiens with 7 samples.

Results

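The genes followed here encode subunits of potassium, calcium and sodium channels. They were taken by gene name: every autosomal probe of the arrays whose gene name begins with KCN (potassium) or CACNA (calcium), or is SCN followed by digits and A or B (sodium). This gave 113 gene names of the 26916 named autosomal genes on the arrays, of which 86 are potassium, 13 calcium and 14 sodium channel genes. The rule also takes in potassium channels that are not opened by voltage, such as the inward rectifiers (KCNJ) and the background leak channels (KCNK), and a gene is represented by the mean of its probes.

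The series measured when DNA is copied during S phase. Growing cells were given the thymidine analogue BrdU at 50 µM for 2 h, 80000 fixed cells were sorted by DNA content into 2 fractions of S phase (early and late), and the DNA made during the pulse was pulled down with an antibody, amplified and hybridised to 2-colour Agilent arrays. Early DNA carried Cy3 and late DNA Cy5 on all 7 arrays, with no dye swap. K562, a human chronic myeloid leukaemia line that grows in suspension, was used on 3 arrays: 1 after a new cell sorting method, 1 after the old method, both on a larger design of 180880 features, and 1 labelled 44k on a design of 62976 features, for which the labels give no sorting method. U2OS, a human adherent osteosarcoma line, was used on 4 arrays of the larger design, 2 labelled manual and 2 labelled automated, and both manual arrays shared a slide. No genotype, drug or other treatment is named for either line. Values are log2(early/late) relative to the median autosomal probe of the same array, so a positive value means earlier replication than that probe and a negative value later replication. Nothing in the labels says that arrays of a line came from separate cultures, so the p-values below measure the spread between arrays, which may be technical.

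Voltage-gated channels open or close in response to the voltage across the membrane, and their pore-forming alpha subunits carry a voltage sensor beside the pore. Sodium and calcium channel alpha subunits drive the rising phase of electrical signals in nerve, heart and muscle, potassium channels bring the membrane back to rest, and beta, alpha2delta and interacting proteins adjust how the pores behave. Many of these genes are very long and are used mainly in excitable tissue, and replication timing is known to follow megabase domains in which long genes that are silent in a cell type often replicate late.

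The data consist of short probes on which both fractions compete. The probe nearest the middle of a gene among those on both array designs is printed for 7 genes. Of these, 4 are sodium channel genes of chromosome 2, all late in U2OS. In K562 SCN9A and SCN7A had earlier means than SCN3A and SCN2A. The others are KCNJ1, KCNJ5 and KCNMA1, potassium channel genes that replicated later in K562. Positions are on hg19, the strand is not given in the deposited tables, and capitals mark CpG dinucleotides.
SCN3A probe, chr2:165987895-165987954: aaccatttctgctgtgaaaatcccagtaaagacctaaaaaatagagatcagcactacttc
SCN2A probe, chr2:166150605-166150664: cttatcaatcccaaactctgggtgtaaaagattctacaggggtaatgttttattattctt
SCN9A probe, chr2:167182965-167183024: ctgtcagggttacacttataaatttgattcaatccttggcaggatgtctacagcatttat
SCN7A probe, chr2:167288832-167288891: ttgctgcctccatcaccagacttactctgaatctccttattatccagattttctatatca
KCNJ1 probe, chr11:128728456-128728515: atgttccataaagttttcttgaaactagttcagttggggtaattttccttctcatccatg
KCNJ5 probe, chr11:128772225-128772274: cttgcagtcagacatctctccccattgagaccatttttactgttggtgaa
KCNMA1 probe, chr10:79010946-79011005: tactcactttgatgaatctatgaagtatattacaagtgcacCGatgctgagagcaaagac

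The KCNMA1 probe gave log2(early/late) values of −2.35, −2.48 and −2.10 on the new-sorting, old-sorting and 44k K562 arrays, and 1.79, 0.96, 1.8 and 1.38 on manual arrays 1 and 2 and automated arrays 1 and 2 of U2OS. The KCNJ1 probe gave −2.52, −1.61 and −1.14 in K562 and 1.60, 1.90, 0.85 and 0.24 in U2OS, in the same array order. On both probes every K562 array lay below 0 and every U2OS array above it. The SCN2A probe was late on all 7 arrays, from −3.68 to −1.38. The SCN9A probe gave −0.66, 0.00 and 0.18 in K562 and −1.03, −2.07, −2.21 and −2.74 in U2OS. The SCN7A probe stood apart from the rest of its gene: it gave −0.52, 0.63, 0.04 and −0.20 on the U2OS arrays, where the mean of all 8 SCN7A probes was −2.13.

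Of the member genes, 112 had probes on the larger design (1345 to 1350 probes per array) and 109 on the array labelled 44k (438 probes). All 7 arrays measured 108 of them, which are compared below. KCNH3, KCNK4, KCNV2 and KCNMB2 had no probe under those names on the 44k array, and KCNMB2-AS1 was named only there, at −1.28. Signal differed between arrays: the late channel was well above background for 9.0% of autosomal probes on the 44k array and for 41.4% to 97.0% on the others, and 49.5% of the late-channel values on the 44k array were surrogates that the scanner software sets near background. The early channel was weakest on the old-sorting K562 array, at 45.6% of probes well above background. As a check of the lines, probes of CDKN2A and MTAP, which lie in a region of chromosome 9 deleted in K562, gave a summed signal of both channels between −3.40 and −1.27 (log2, relative to the array's median probe) on the K562 arrays and between −1.08 and −0.42 on the U2OS arrays, so the groups did not overlap. Across the 108 members, arrays of U2OS correlated at Pearson's r of 0.84 to 0.97, arrays of K562 at 0.74 to 0.88, and arrays of different lines at 0.53 to 0.78; these correlations run across genes that share arrays and domains.

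The ion channel genes spanned nearly the whole range of S phase, with a tail of late genes in both lines. The median member had a log2(early/late) of 0.34 in K562 and 0.60 in U2OS, against 0.65 and 0.84 for all 15036 named genes measured on every array. Late replication on every array of a line was seen for 34 of 108 members in U2OS (31.5%), against 19.7% of all genes, and for 36 members in K562 (33.3%), against 21.4%. On all 7 arrays, 26 members were late (24.1%, against 13.2% of all genes) and 35 were early (32.4%, against 40.6%). The median members of single arrays lay at 0.30 ± 0.12 (SD, n = 3 K562 arrays) and 0.47 ± 0.21 (SD, n = 4 U2OS arrays), where all genes had 0.64 ± 0.25 and 0.79 ± 0.07.

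Gene length accompanied the late tail. Timing fell with the log2 number of probes per gene across the 108 members, with Pearson's r of −0.40 in K562 and −0.35 in U2OS, against −0.18 and −0.25 across all 15036 genes. The same arrays and the same probes underlie each point, so these are descriptions. Among genes with 20 or more probes on the larger design, 52.4% of 21 members and 61.1% of all such genes were late on every U2OS array. With 10 to 19 probes the shares were 58.8% of 17 members and 31.3% of all, with 3 to 9 probes 16.2% of 37 members and 18.9% of all, and with 1 or 2 probes 21.2% of 33 members and 12.2% of all. In K562 the shares late on every array, in the same order of bins, were 66.7% of members and 62.1% of all, 58.8% and 32.0%, 16.2% and 19.6%, and 18.2% and 14.9%. In U2OS the members' share was thus above that of genes of like probe number in the bins of 1 or 2 and of 10 to 19 probes, and below it in the other bins.

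**Figure D1:**
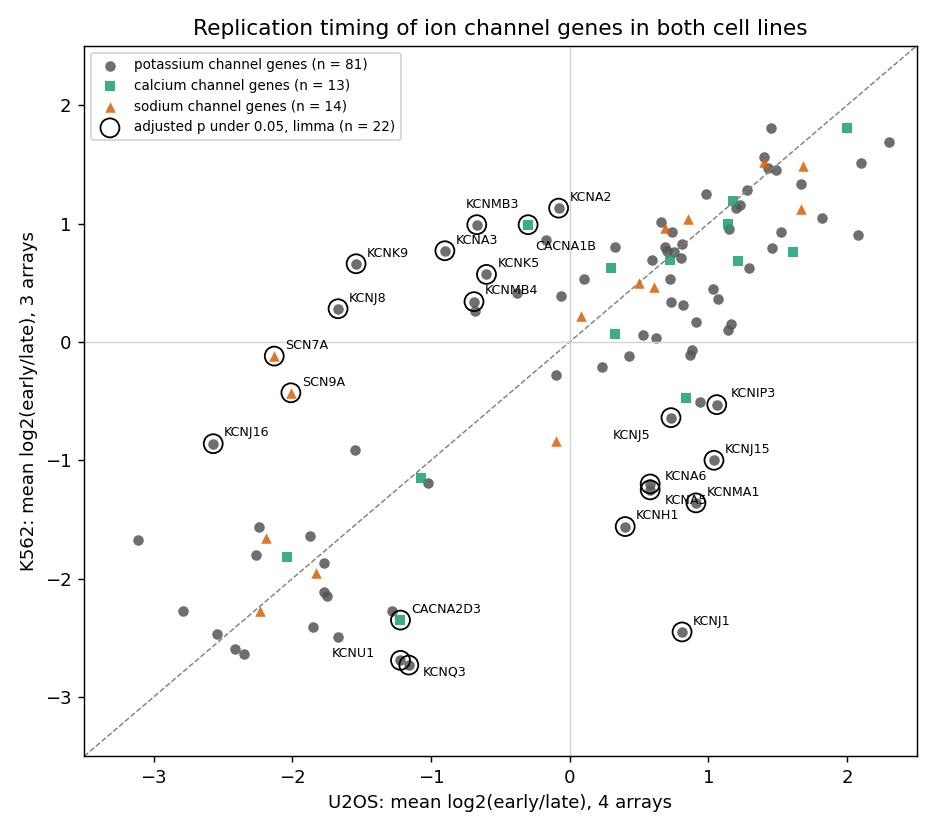
Mean log2(early/late) of each of the 108 ion channel genes in U2OS (x axis, 4 arrays) and K562 (y axis, 3 arrays), with colours and shapes for the 3 channel classes, open circles around the 22 genes with an adjusted p under 0.05 (limma) and a dashed line of equal timing. Most genes follow the line, the late genes of both lines form a group at the lower left, and KCNJ1 lies farthest below the line.

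The channel classes overlapped broadly. The median potassium channel gene lay at 0.31 in K562 and 0.62 in U2OS (81 genes), the median calcium channel gene at 0.68 and 0.72 (13 genes) and the median sodium channel gene at 0.34 and 0.29 (14 genes). Within potassium channel genes, means ran from −3.11 for KCNJ2 to 2.30 for KCNK12 in U2OS, which is wider than any gap between class medians. The classes were compared by these medians alone, with no test.

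Among sodium channel genes the alpha subunits, which form the pore, fell into a late and an early set. Of the 10 alpha genes, 5 had U2OS means from −2.23 to −1.83 and 5 from 0.50 to 1.68; the median difference between lines was 0.09. The 4 beta genes, which encode accessory subunits, had medians of 0.74 in U2OS and 0.67 in K562. SCN8A, the alpha subunit of nodes of Ranvier, was early and steady: it gave 1.40, 1.40 and 1.68 on the new-sorting, old-sorting and 44k K562 arrays and 1.64, 1.60, 1.78 and 1.72 on the manual and automated U2OS arrays. The latest sodium channel gene in both lines was SCN2A, a brain alpha subunit, at −2.27 ± 0.68 in K562 (SD, n = 3) and −2.23 ± 0.11 in U2OS (SD, n = 4). The means of SCN8A (17 probes) were above 0 and those of SCN2A (13 probes) below 0 on every array. By mean, SCN8A and the beta genes SCN4B and SCN2B were the 3 earliest sodium channel genes in both lines. SCN4B averaged 1.52 ± 0.81 in K562 and 1.40 ± 0.56 in U2OS, and SCN2B 1.12 ± 1.12 and 1.67 ± 1.20. The single SCN2B probe was not well above background in the late channel on any array, so its value has no upper limit from these data.

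Calcium channel genes ran from early to late, with alpha and alpha2delta subunit genes among both the early and the late. CACNA1S, the skeletal muscle alpha subunit, was the earliest in both lines, at 1.81 ± 0.43 in K562 (SD, n = 3) and 2.0 ± 0.20 in U2OS (SD, n = 4). CACNA1A, the P/Q-type alpha subunit of nerve terminals, gave 1.0 ± 0.38 and 1.14 ± 0.20, CACNA1G, a T-type alpha subunit, 0.69 ± 0.23 and 0.72 ± 0.63, and CACNA1C, the L-type alpha subunit of heart, 0.07 ± 0.27 and 0.33 ± 0.50. In U2OS, CACNA1I and CACNA2D2 were also early, at 1.61 ± 0.26 and 1.21 ± 0.22, above each of their K562 values, which averaged 0.76 ± 0.42 and 0.68 ± 0.03; neither difference passed the test (adjusted p = 0.105 and 0.235). The late calcium channel genes were CACNA2D1, an alpha2delta subunit, at −1.82 ± 1.17 in K562 and −2.04 ± 0.21 in U2OS, CACNA1E, the R-type alpha subunit, at −1.15 ± 0.27 and −1.07 ± 0.44, and CACNA2D3, described below.

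Among potassium channel genes the latest in U2OS were KCNJ2, KCNN2 and KCNJ16, and the latest in K562 were KCNQ3, KCNU1 and KCNJ3. KCNN2, a calcium-activated channel of small conductance, gave −2.79 ± 0.15 in U2OS (SD, n = 4) and −2.27 ± 1.05 in K562 (SD, n = 3). KCNJ3, a G-protein-gated inward rectifier, gave −2.35 ± 0.25 and −2.64 ± 0.59. The earliest were KCNK12, a leak channel family member, at 2.30 ± 0.23 in U2OS and 1.69 ± 0.27 in K562, KCNG1, a modifier subunit, at 2.10 ± 0.78 and 1.51 ± 0.50, KCNJ11, the pore of the ATP-sensitive channel of beta cells, at 2.08 ± 0.45 and 0.90 ± 1.36, KCNN3 at 1.45 ± 0.31 and 1.81 ± 0.17, and KCNJ9 at 1.40 ± 0.39 and 1.56 ± 1.26. The late channel of KCNJ11 and KCNJ9 was not well above background on any K562 array, which also held for KCNC1, KCNH6 and KCNN4 among the genes named here and for 9 of the 108 members in all, and for none of the 22 called genes. Single arrays were dim at called genes too. On the 44k array no probe of CACNA1B, KCNA2, KCNA3, KCNA5, KCNA6, KCNJ1 or KCNJ5 was well above background in the late channel. Nor was any probe of KCNJ8, KCNJ15, KCNJ16, KCNK9, KCNMB3, KCNMB4 or SCN9A there. KCNJ8 and KCNMB3 were dim in that channel on the new-sorting K562 array as well. No probe of KCNJ1 was well above background in the early channel on the old-sorting K562 array or in the late channel on manual array 1. The same held for the late channel of KCNJ15 and KCNJ5 on both manual arrays. Nearer the middle were KCNQ1, at 0.74 ± 0.29 in U2OS and 0.93 ± 0.14 in K562, and KCNH2, the cardiac hERG channel, at 0.53 ± 0.92 and 0.06 ± 1.51. KCNN4, the calcium-activated channel of red cells and lymphocytes, gave 0.73 ± 1.55 and 0.34 ± 1.20. Other channels of heart or blood cells lay elsewhere: KCNJ2 and KCNA3, described below, averaged −3.11 and −0.90 in U2OS. KCNN4 rests on a single probe and its spread between arrays exceeded its mean in both lines.

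K562 and U2OS copied a set of ion channel genes at different times. Of 108 members, 22 passed the test (20.4%, against 14.9% of all 15036 genes). In K562, 11 replicated earlier (10.2%, against 6.9% of all genes) and 11 replicated later (10.2%, against 8.03%). The largest difference was at KCNJ1, an inward rectifier of the kidney tubule, which was 3.26 ± 0.36 (SE) log2 units later in K562. By class, 18 of 81 potassium, 2 of 13 calcium and 2 of 14 sodium channel genes were called.

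The test was limma on the gene means of all 7 arrays, with Benjamini-Hochberg adjustment over all genes and a threshold of 0.05. With normexp background correction 10 members were called (9.26%), below the 11.7% of all genes called there. Without automated array 2 of U2OS 13 were called (12%, against 9.83%), and on the 6 arrays of the larger design 15 of 112 (13.4%, against 11.5%). Restricted to genes with at least 3 probes on every array, 13 of 46 members were called (28.3%, against 31.4% of all such genes), so the members' share was above the background over all genes and below it among genes of more probes. By probe number on the larger design, 15.2% of members and 10% of all genes with 1 or 2 probes were called, 27.0% and 16.3% with 3 to 9 probes, 17.6% and 23.1% with 10 to 19, and 19% and 27.4% with 20 or more. The groups of arrays did not overlap for 33 members (30.6%, against 26.1% of all genes): the 22 called and 11 more, among them CACNA1I, CACNA2D2, KCNE2, KCNK12 and KCNK16.

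**Figure D2:**
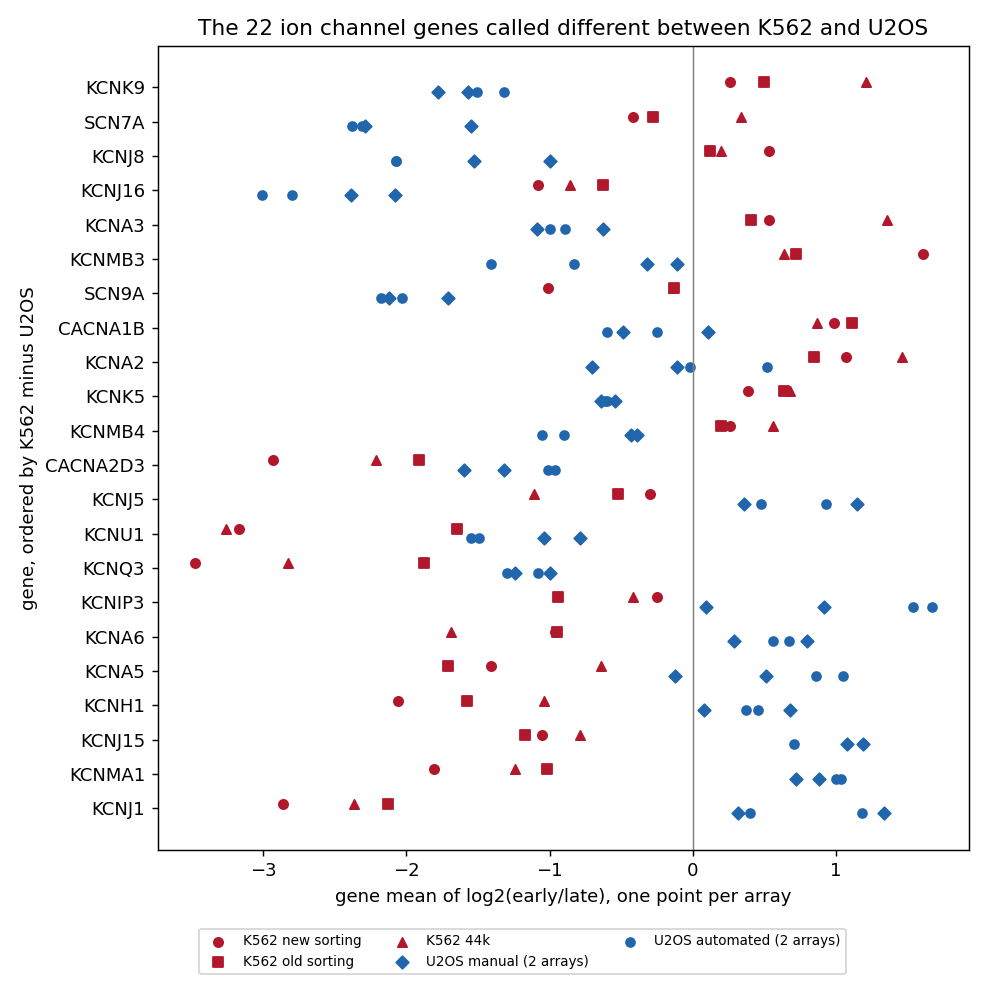
Gene means of log2(early/late) on each of the 7 arrays for the 22 called ion channel genes, ordered by the difference between lines, with K562 in red and U2OS in blue and shapes for the array groups. The K562 and U2OS points of each gene do not overlap, from KCNJ1 at the bottom (later in K562) to KCNK9 at the top (earlier in K562).

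Of the 11 genes copied later in K562, 10 were potassium channel genes and 1 was a calcium channel gene. Potassium channel genes also made up 81 of the 108 members tested and 8 of the 11 genes copied earlier. KCNJ1 gave −2.86, −2.13 and −2.37 on the new-sorting, old-sorting and 44k K562 arrays and 1.34, 0.32, 1.18 and 0.40 on manual arrays 1 and 2 and automated arrays 1 and 2 of U2OS (adjusted p = 0.000568). KCNMA1, the pore of the BK channel opened by calcium and voltage, gave −1.81, −1.02 and −1.24 in K562 and 0.72, 0.88, 1.04 and 1.0 in U2OS, a difference of −2.26 ± 0.30 (SE; adjusted p = 0.00101). Each K562 array was late and each U2OS array early at both genes. KCNJ15, another inward rectifier, gave −1.05, −1.17 and −0.79 against 1.19, 1.08, 0.71 and 1.19, a difference of −2.04 ± 0.28 (adjusted p = 0.00125). KCNH1, the ether-à-go-go channel, gave −2.06, −1.58 and −1.04 against 0.08, 0.68, 0.37 and 0.46, a difference of −1.96 ± 0.33 (adjusted p = 0.00335). These genes again crossed from early in U2OS to late in K562, with no overlap.

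KCNA5 and KCNA6, voltage-gated channels of the Shaker family, behaved alike. KCNA5, known from the atrium, gave −1.41, −1.71 and −0.64 in K562 and −0.12, 0.51, 0.86 and 1.05 in U2OS (difference −1.83 ± 0.38, adjusted p = 0.0107). KCNA6 gave −0.96, −0.95 and −1.69 against 0.80, 0.29, 0.56 and 0.67 (difference −1.78 ± 0.31, adjusted p = 0.00399). Neither overlapped between lines, and manual array 1 was the lowest U2OS array for KCNA5 and the highest for KCNA6. KCNIP3, a calcium-binding partner of voltage-gated channels, was 1.59 ± 0.42 later in K562 (adjusted p = 0.0297), and KCNJ5, a G-protein-gated inward rectifier, 1.38 ± 0.33 later (adjusted p = 0.0206).

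At 3 of the 11 genes both lines were late and K562 later still. KCNQ3, a subunit of the M-current, averaged −2.73 ± 0.81 in K562 (SD, n = 3) and −1.16 ± 0.14 in U2OS (SD, n = 4; adjusted p = 0.0212). KCNU1, a sperm channel related to BK, averaged −2.69 ± 0.90 and −1.22 ± 0.36 (adjusted p = 0.0462), and CACNA2D3, an alpha2delta subunit, −2.35 ± 0.52 and −1.22 ± 0.30 (adjusted p = 0.0497). On the old-sorting array these genes were closest to 0 within K562, at −1.88, −1.65 and −1.91. There the early channel was well above background for only 1 of 25 KCNQ3 probes, 3 of 12 KCNU1 probes and 11 of 71 CACNA2D3 probes. Without the 44k array the adjusted p of KCNQ3, KCNU1, CACNA2D3, KCNIP3 and KCNJ5 rose to 0.071, 0.163, 0.095, 0.0749 and 0.0754, and that of KCNA2 and KCNMB4, described below, to 0.139 and 0.125. On that array all probes of KCNJ1 and KCNJ5, and of KCNJ8 and KCNMB3 described below, had a surrogate value in a channel. Without that array KCNJ1 still differed by −3.31 (adjusted p = 0.00369, limma). KCNJ8 differed by 1.99 and KCNMB3 by 1.83 (adjusted p = 0.0171 and 0.0393, limma). In the late channel neither gene had a probe well above background on the 44k or the new-sorting array. Within K562 only the old-sorting array had such probes.

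The genes copied earlier in K562 came from all 3 classes. KCNK9, an acid-sensitive leak channel, gave 0.26, 0.50 and 1.21 on the new-sorting, old-sorting and 44k K562 arrays and −1.78, −1.57, −1.32 and −1.51 on the manual and automated U2OS arrays, a difference of 2.20 ± 0.32 (SE; adjusted p = 0.00158). KCNJ8, the pore of the ATP-sensitive channel of vessel muscle, gave 0.53, 0.12 and 0.20 against −1.0, −1.53, −2.07 and −2.07 on its single probe (difference 1.95 ± 0.34, adjusted p = 0.00432). KCNA3, the voltage-gated channel of T lymphocytes, gave 0.53, 0.41 and 1.36 against −0.63, −1.09, −0.89 and −1.0 (difference 1.67 ± 0.32, adjusted p = 0.00689). All 3 were early on every K562 array and late on every U2OS array. KCNMB3 and KCNMB4, beta subunits of BK, were earlier in K562 by 1.66 ± 0.40 (adjusted p = 0.0206) and 1.03 ± 0.30 (adjusted p = 0.0436), the opposite direction to the pore gene KCNMA1. KCNMB4 is the only called gene outside the naming rule and is named because its values were seen.

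CACNA1B, the N-type alpha subunit of nerve terminals, gave 0.99, 1.11 and 0.87 in K562 and −0.49, 0.11, −0.25 and −0.60 in U2OS (difference 1.30 ± 0.29, adjusted p = 0.0142). Manual array 2 was the only U2OS array above 0. KCNJ16, an inward rectifier subunit, was late in both lines and earlier in K562 by 1.71 ± 0.32 (adjusted p = 0.00577), KCNA2 by 1.21 ± 0.35 (adjusted p = 0.0433) and KCNK5, an alkaline-activated leak channel, by 1.17 ± 0.26 (adjusted p = 0.0139). SCN7A, a sodium channel relative that senses sodium, and SCN9A, the alpha subunit of pain-sensing neurons, were earlier by 2.01 ± 0.33 (adjusted p = 0.00326) and 1.58 ± 0.32 (adjusted p = 0.00883). Of the 22 called genes, KCNJ1, KCNJ15, KCNA5, KCNA6, KCNA3, KCNJ8 and KCNK9 were called under every alternative processing that measured them. None of those 7 was measured with dim probes (not well above background in both channels) left out. There 7 of the 22 were tested and 1, SCN7A, stayed called. KCNMA1 and KCNH1 lost their call only there. The least steady calls were KCNA2, in 5 of 18 alternatives, KCNIP3 and CACNA2D3, in 6 of 19 each, KCNU1, in 7 of 20, and KCNMB4, in 7 of 19. SCN9A lost its call with normexp and with only the probes shared by both designs. All 22 kept their direction under each alternative that measured them.

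By family the counts are small and were not compared by a test; the share over all genes was 14.9%. In the KCNA family 4 of 6 genes were called, 2 in each direction, and in KCNM 3 of 3, again in both directions. In KCNJ 5 of 14 and in KCNK 2 of 14 were called. In KCNH 1 of 7 genes, KCNH1, was called, and the median difference over the family was −0.47. None of the 4 KCNE, 4 KCNG or 4 KCNN genes was called. The 42 tested members that the naming rule leaves unnamed ranged from −2.59 to 1.45 in K562 and from −2.54 to 1.67 in U2OS, and 1 of them, KCNMB4, was called.

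Many of these genes lie beside relatives. Joining members whose probes were at most 500 kb apart gave 18 clusters with 41 genes, of which 40 were measured on all arrays. In the clusters 13 of 40 genes were called (32.5%), in 9 of the 18 clusters, and outside them 9 of 68 (13.2%), beside 14.9% of all genes. Neighbours share replication domains, so genes of a cluster are not independent, and this split was not tested.

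**Figure D3:**
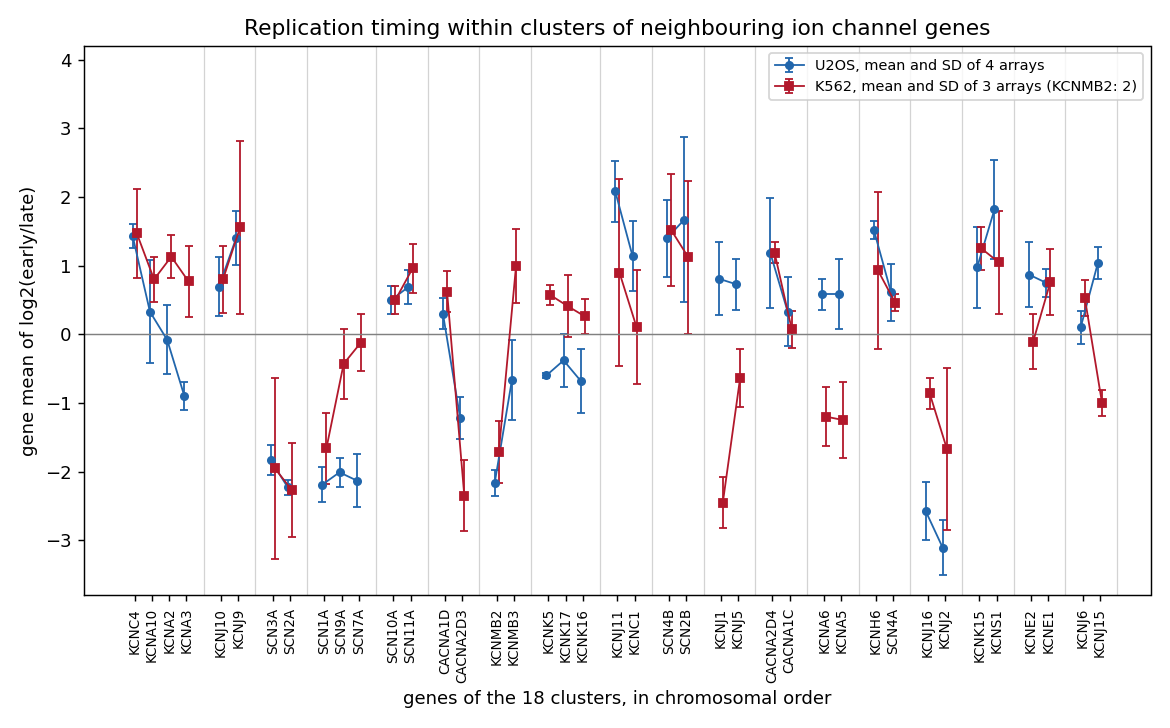
Mean log2(early/late) with SD over arrays of genes in the 18 clusters, in chromosomal order within each cluster, for U2OS (blue circles, 4 arrays) and K562 (red squares, 3 arrays, 2 for KCNMB2). Lines join neighbours of a cluster; the sodium channel genes of chromosome 2 are flat in U2OS and rise toward SCN7A in K562, and KCNJ6 and KCNJ15 cross.

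The sodium channel genes of chromosome 2 form 2 of these clusters, SCN3A and SCN2A (chr2:165944198-166246100) and SCN1A, SCN9A and SCN7A (chr2:166856281-167343356). In U2OS all 5 were late, with means from −2.23 for SCN2A to −1.83 for SCN3A. In K562 the first pair and SCN1A, a brain alpha subunit, were late as well, at −1.95 ± 1.32, −2.27 ± 0.68 and −1.66 ± 0.52 (SD, n = 3), and SCN9A and SCN7A were at −0.43 ± 0.51 and −0.12 ± 0.41. SCN9A gave −1.01, −0.13 and −0.14 on the new-sorting, old-sorting and 44k K562 arrays and −2.12, −1.71, −2.18 and −2.03 on the U2OS arrays. SCN7A gave −0.42, −0.28 and 0.34 against −2.29, −1.55, −2.38 and −2.31. Neither overlapped between lines, whereas SCN3A, SCN2A and SCN1A did. Over the 50.5 kb between SCN1A and SCN9A the mean rose by 1.24 ± 0.12 in K562 (SD, n = 3 arrays), a step seen on each array, and by 0.18 ± 0.32 in U2OS (SD, n = 4).

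The course along this region showed where the lines part. From 900 to 1000 kb past the first SCN3A probe, within SCN1A, the mean of 8 probes was −2.40 ± 0.41 in U2OS (SD, n = 4) and −2.58 and −2.02 in K562 (new and old sorting). From 1200 to 1300 kb, within SCN9A, 8 probes averaged −1.88 ± 0.21 in U2OS and −0.80 and 0.07 in K562. From 1300 to 1400 kb, at SCN7A, 9 probes averaged −2.12 ± 0.43 in U2OS and −0.45 and −0.18 in K562. At the other end, from 0 to 100 kb within SCN3A, the K562 arrays themselves stood apart, at −3.15 with new sorting and −0.61 with old sorting over 10 probes, and U2OS lay between them at −1.78 ± 0.30. Of the 11 SCN3A probes, only 5 with new sorting and 2 with old sorting were well above background in the early channel.

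**Figure D4:**
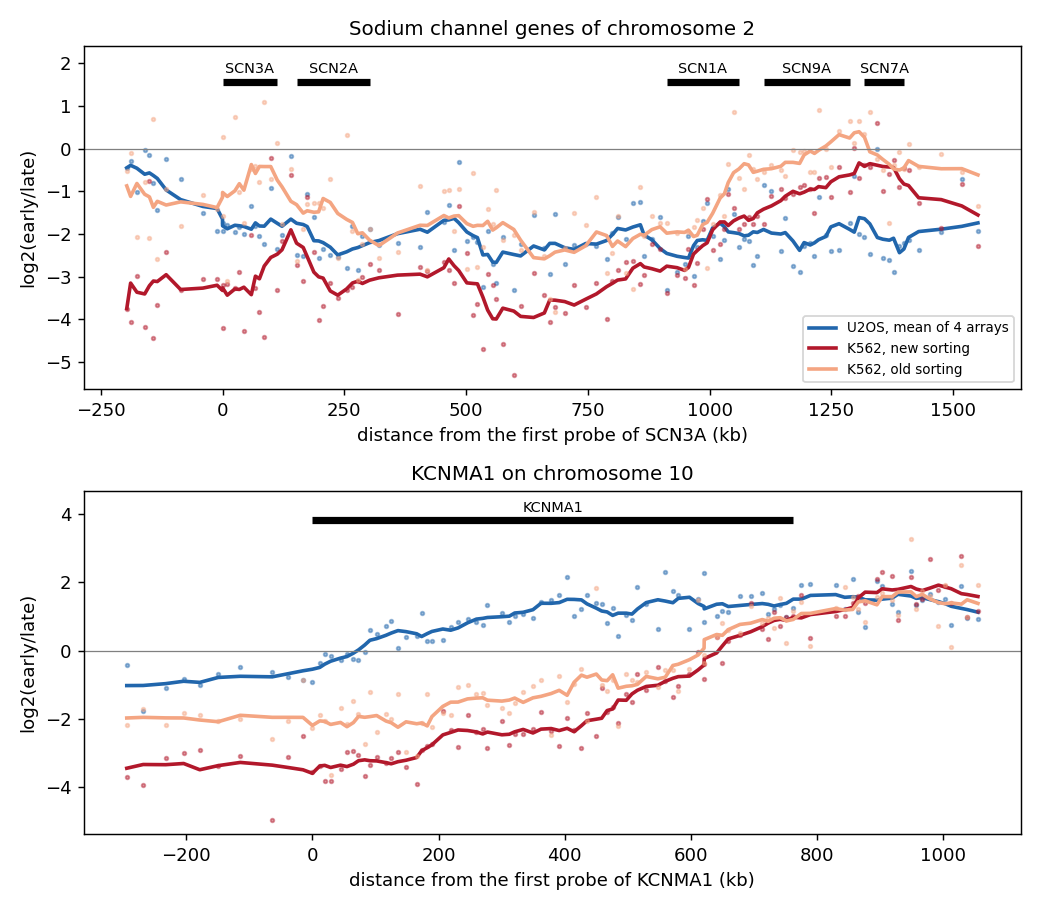
Log2(early/late) of single probes (points) and their running mean over 7 probes (lines) against distance in kb, for U2OS (mean of 4 arrays) and the 2 K562 arrays of the larger design, around the sodium channel genes of chromosome 2 (top) and KCNMA1 (bottom), with black bars over the probes of each gene. In the top plot K562 rises above U2OS from SCN1A toward SCN7A; in the bottom plot both K562 arrays climb from below −2 at the low-coordinate end of KCNMA1 and meet U2OS just past its high-coordinate end.

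The sodium channel genes SCN10A and SCN11A of chromosome 3, alpha subunits of sensory neurons, replicated early in both lines. SCN10A averaged 0.50 ± 0.20 in K562 (SD, n = 3) and 0.50 ± 0.21 in U2OS (SD, n = 4), and SCN11A 0.96 ± 0.36 and 0.69 ± 0.25. Both were above 0 on all 7 arrays. SCN4A, the skeletal muscle alpha subunit, lay beside KCNH6 on chromosome 17 and averaged 0.46 ± 0.12 and 0.61 ± 0.42, against 0.93 ± 1.14 and 1.52 ± 0.13 for KCNH6. SCN4B and SCN2B, 18.2 kb apart on chromosome 11, were both early, as given above. In U2OS, clustered sodium channel genes were thus late on chromosome 2 and had means above 0 on chromosomes 3, 11 and 17. Sodium channel genes within a cluster lay close together, except that in K562 SCN1A lay below SCN9A and SCN7A.

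In 2 potassium channel pairs both genes changed together. KCNJ1 and KCNJ5 (chr11:128708382-128787168) were early in U2OS, at 0.81 ± 0.53 and 0.73 ± 0.37 (SD, n = 4), and late in K562, at −2.45 ± 0.37 and −0.64 ± 0.42 (SD, n = 3). All probes within the first 100 kb of this pair, 10 in number, averaged 0.73 ± 0.24 in U2OS and −2.05 and −1.04 in K562 (new and old sorting). From 300 to 400 kb, beyond KCNJ5, 5 probes gave −0.32 ± 0.48 in U2OS and −3.68 and −1.39 in K562, so K562 was later there too. KCNA6 and KCNA5 on chromosome 12 gave the same mean in U2OS, 0.58, with SDs of 0.22 and 0.51, and similar means in K562, −1.20 ± 0.43 and −1.25 ± 0.55.

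On chromosome 1, 4 voltage-gated potassium channel genes in a row, KCNC4, KCNA10, KCNA2 and KCNA3, had successively lower means in U2OS and means above 0 in K562. Their U2OS means were 1.43 ± 0.17, 0.33 ± 0.75, −0.08 ± 0.50 and −0.90 ± 0.20 (SD, n = 4), and their K562 means 1.47 ± 0.65, 0.80 ± 0.33, 1.13 ± 0.31 and 0.77 ± 0.52 (SD, n = 3). The U2OS step from KCNA10 to KCNA2 was −0.41 ± 1.21 and ran upward on both automated arrays. The step from KCNA2 to KCNA3 was downward on all 7 arrays, by −0.82 ± 0.46 in U2OS and −0.36 ± 0.23 in K562. KCNA10 rests on 1 probe.

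On chromosome 21, KCNJ6 and KCNJ15, inward rectifiers 330 kb apart, crossed between the lines. The step from KCNJ6 to KCNJ15 was −1.54 ± 0.27 in K562 (SD, n = 3) and 0.94 ± 0.20 in U2OS (SD, n = 4), negative on each K562 array and positive on each U2OS array. KCNJ6, a G-protein-gated subunit, averaged 0.53 ± 0.26 in K562 and 0.10 ± 0.24 in U2OS, with overlap. KCNE2 and KCNE1, small accessory subunits on the same chromosome, averaged −0.11 ± 0.40 and 0.76 ± 0.48 in K562 and 0.87 ± 0.47 and 0.75 ± 0.20 in U2OS. KCNE2 did not overlap between lines and missed the threshold (adjusted p = 0.0948).

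The latest pair in U2OS was KCNJ16 and KCNJ2 on chromosome 17. KCNJ2, the inward rectifier that sets the resting potential in heart and muscle, gave −2.81, −2.75, −3.60 and −3.28 on the U2OS arrays and −2.91, −0.57 and −1.53 on the new-sorting, old-sorting and 44k K562 arrays. KCNJ16 gave −2.08, −2.39, −3.01 and −2.80 against −1.08, −0.63 and −0.86. The new-sorting array put KCNJ2 within the U2OS range, so that this gene, with 1 probe, overlapped and was not called (adjusted p = 0.0921), while KCNJ16 did not overlap. The leak channel genes KCNK5, KCNK17 and KCNK16 on chromosome 6 had means below 0 in U2OS, at −0.60 ± 0.04, −0.38 ± 0.39 and −0.68 ± 0.47, and above 0 in K562, at 0.57 ± 0.15, 0.41 ± 0.45 and 0.26 ± 0.25. Only KCNK5 of the 3 passed the test.

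Clusters on chromosomes 3 and 12 held calcium channel genes or BK subunits far apart in timing. CACNA1D, an L-type alpha subunit, averaged 0.62 ± 0.30 in K562 (SD, n = 3) and 0.30 ± 0.23 in U2OS (SD, n = 4), and its neighbour CACNA2D3 lay 2.98 ± 0.69 and 1.52 ± 0.23 log2 units below it; the step was downward on all 7 arrays. CACNA2D4 and CACNA1C on chromosome 12 gave a downward step on all 7 arrays too, from 1.19 ± 0.15 to 0.07 ± 0.27 in K562 and from 1.18 ± 0.80 to 0.33 ± 0.50 in U2OS. KCNMB2 averaged −1.72 ± 0.45 on the 2 larger K562 arrays and −2.17 ± 0.19 in U2OS, and KCNMB3, 408 kb away, 0.99 ± 0.54 and −0.67 ± 0.58.

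The remaining pairs were early in both lines or nearly so, and none of their genes was called. KCNJ10 and KCNJ9 on chromosome 1 averaged 0.80 ± 0.49 and 1.56 ± 1.26 in K562 and 0.69 ± 0.43 and 1.40 ± 0.39 in U2OS. KCNJ11 and KCNC1 on chromosome 11 averaged 0.90 ± 1.36 and 0.10 ± 0.83 in K562 and 2.08 ± 0.45 and 1.14 ± 0.51 in U2OS. KCNK15 and KCNS1 on chromosome 20 averaged 1.25 ± 0.32 and 1.05 ± 0.75 in K562 and 0.98 ± 0.59 and 1.82 ± 0.72 in U2OS.

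Some of the longest genes changed timing along their own length. For the 22 members with at least 20 probes on the larger design, the probes were ordered by position and split into 3 equal parts, and the part at the high coordinates was subtracted from the part at the low coordinates. The size of this gradient reached 1 in U2OS for 3 genes and in K562 for 5 genes, with KCNMA1 in both sets, and 13 genes stayed under 0.5 in U2OS, 13 in K562 and 7 in both. A gene mean averages over such differences.

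KCNMA1, with 66 probes over 763 kb, had a gradient of −2.63 ± 0.60 in K562 (SD, n = 2 arrays) and −1.14 ± 0.66 in U2OS (SD, n = 4). Its low-coordinate part averaged −2.60 in K562 and 0.21 in U2OS, and its high-coordinate part 0.03 and 1.35. In its first 100 kb the K562 arrays (new and old sorting) gave −3.41 and −2.10 over 10 probes and U2OS −0.19 ± 0.68, and from 700 to 800 kb the values were 0.85, 0.86 and 1.43 ± 0.22 over 8 probes. The difference between lines thus narrowed from the low to the high coordinates of the gene, as the plot of probes along KCNMA1 shows. CACNA2D3 had the largest gradient in U2OS, −1.73 ± 0.49 (SD, n = 4), from −1.81 to −0.08, and almost none in K562, −0.11 ± 0.04 (SD, n = 2), where both ends were late at −2.36 and −2.25.

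KCND2, a voltage-gated channel of fast transient currents, showed the reverse: its gradient was −2.61 ± 0.24 in K562 and −0.54 ± 0.20 in U2OS, with K562 parts at −2.34 and 0.28. KCNH1 had a gradient of −2.04 ± 0.59 in K562 and 0.10 ± 0.34 in U2OS. KCNIP1 and KCNJ6 ran the other way in K562, at 1.52 ± 0.25 and 1.09 ± 0.23, and were flat in U2OS, at 0.07 ± 0.51 and −0.06 ± 0.31. KCNQ5, an M-current subunit, and CACNA1E and CACNA1D had U2OS gradients of −1.05 ± 0.40, 0.94 ± 0.41 and 0.78 ± 0.27, each of the same sign on all 4 U2OS arrays. KCNQ5 as a whole averaged −0.10 ± 0.41 in U2OS and −0.28 ± 0.17 in K562, close to the median probe. KCND2, KCNIP1, KCNH1 and KCNJ6 are named here for their K562 gradients, which were seen first.

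**Figure D5:**
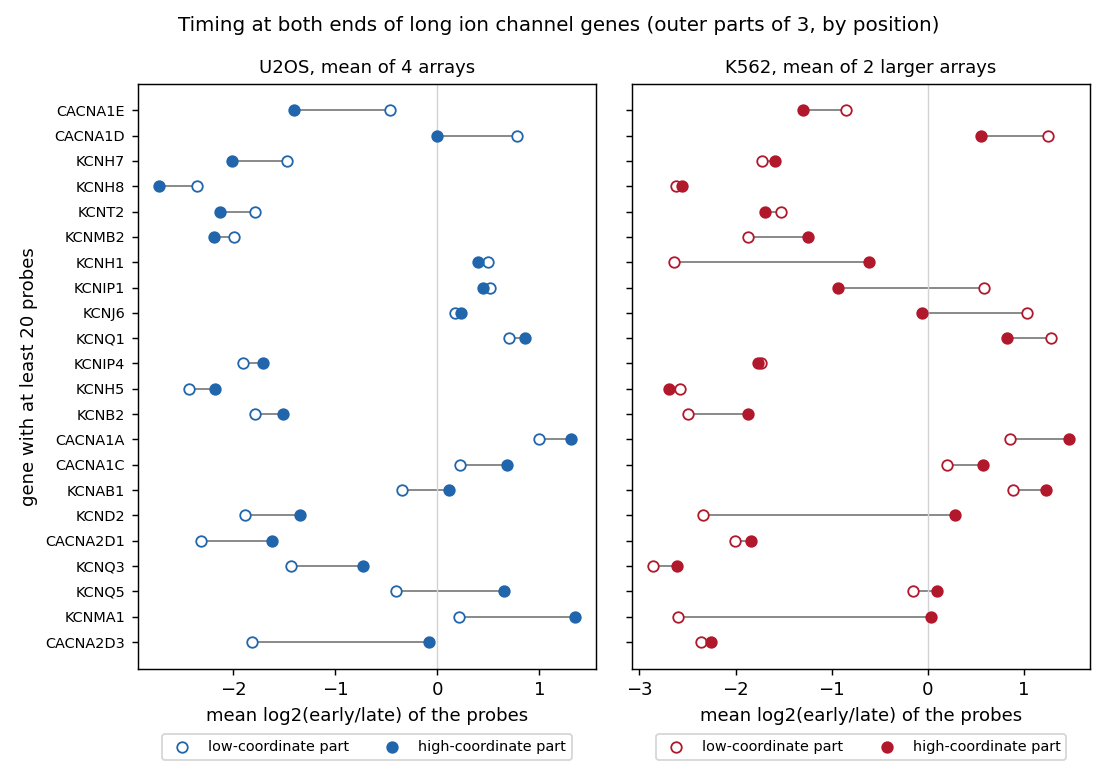
Mean log2(early/late) of the low-coordinate part (open circles) and the high-coordinate part (filled circles) of each of the 22 ion channel genes with at least 20 probes, in U2OS (left, 4 arrays) and K562 (right, 2 larger arrays). The longest joining lines belong to CACNA2D3 in U2OS and to KCNMA1, KCND2 and KCNH1 in K562.

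Promoter sequence showed little relation to timing. CpG dinucleotides (the letters CG, which read the same on both strands) were counted in the 300 bases of RefSeq promoters on GRCh38.p14, 250 before and 50 after the gene start, for the 83 members that matched by symbol. At least 20 were found in 40 of these 83 promoters (48.2%). Of all 27305 promoters, whether or not their genes were on the arrays, 41.2% had at least 20 and 95.8% at least 1. Among genes measured on all arrays the members' median count was the lower, at 20 for 80 matched members and 24 for 10330 genes. Across the 80 matched members tested, Pearson's r of CpG count and timing was 0.01 in K562 and 0.10 in U2OS, against 0.12 and 0.13 across 10330 genes, with the arrays shared by all points. The promoters of SCN8A, early in both lines, of KCNMA1, whose gene mean was late in K562, and of SCN2A, late in both, show the range of counts, with 52, 54 and 2 CpG dinucleotides in capitals.
SCN8A promoter, chr12:51590983-51591282, + strand: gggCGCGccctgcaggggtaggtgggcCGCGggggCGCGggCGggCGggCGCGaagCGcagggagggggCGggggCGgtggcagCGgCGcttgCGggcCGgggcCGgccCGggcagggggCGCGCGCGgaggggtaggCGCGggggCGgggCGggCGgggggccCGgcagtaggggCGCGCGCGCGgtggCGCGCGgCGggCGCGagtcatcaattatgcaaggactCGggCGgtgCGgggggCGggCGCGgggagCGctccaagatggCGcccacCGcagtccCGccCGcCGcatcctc
KCNMA1 promoter, chr10:77637759-77638058, - strand: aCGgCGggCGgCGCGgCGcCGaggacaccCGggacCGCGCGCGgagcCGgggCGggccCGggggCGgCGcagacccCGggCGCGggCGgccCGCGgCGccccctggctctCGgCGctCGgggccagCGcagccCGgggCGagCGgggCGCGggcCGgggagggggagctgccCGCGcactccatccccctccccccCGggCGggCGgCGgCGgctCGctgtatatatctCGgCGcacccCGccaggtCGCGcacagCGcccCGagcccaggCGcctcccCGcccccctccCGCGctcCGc
SCN2A promoter, chr2:165239164-165239463, + strand: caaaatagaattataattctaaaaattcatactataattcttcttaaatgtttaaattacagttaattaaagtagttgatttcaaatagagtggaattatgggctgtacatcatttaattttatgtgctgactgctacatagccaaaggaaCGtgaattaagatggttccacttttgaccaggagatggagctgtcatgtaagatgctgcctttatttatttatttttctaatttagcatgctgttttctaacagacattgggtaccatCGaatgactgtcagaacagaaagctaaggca

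The promoters of the late SCN2A and the early SCN8A stood far apart in CpG number. KCNMA1 is on the minus strand, so its promoter lies at the high-coordinate end of the gene, where K562 read 0.85 and 0.86 over the 100 kb from 700 to 800 kb. The median count was 15.5 for the 26 matched members late on all U2OS arrays and 23 for the 39 matched members early on all of them, over ranges of 0 to 47 and 1 to 54.

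Genes that work with these channels were read in the same fit, in which 14.9% of all genes were called. The lists are short and were not compared by a test. Of 12 calcium channel auxiliary genes (beta and gamma subunits), 1 was called, CACNB4, at 0.97 ± 0.29 (SE) earlier in K562 (adjusted p = 0.0498), and CACNB2 was at −0.99 ± 0.30 (adjusted p = 0.0515). Of 10 pacemaker and related cation channel genes tested, 2 were called: CNGA3, a channel of cone cells, earlier in K562 by 1.49 ± 0.33, and NALCN, the sodium leak channel, later, at −1.32 ± 0.36. Of 7 chloride channel genes, CLCN2 was called, at −1.44 ± 0.36, and CLCN3, second by size, gave −0.76 ± 0.32. Of 12 partners that place or modulate channels, 3 were called: KCTD16 at −2.0 ± 0.40, the ankyrin ANK2 at −1.67 ± 0.36 and ANK3 at 0.98 ± 0.28. Of 6 intracellular calcium release channels, ITPR1 replicated earlier in K562 by 1.52 ± 0.30 and ITPR2 later, at −1.18 ± 0.30. The partners were the latest of these lists, with medians of −1.70 in K562 and −0.60 in U2OS.

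No member passed the adjusted threshold between automated and manual handling of U2OS, which in a comparison of 2 against 2 arrays does not show that the values were alike. Between 2 automated and 2 manual arrays, 0 of 112 members and 0 of 23757 genes (0.0%) had an adjusted p under 0.05 by limma, while 17 members (15.2%) and 4584 genes (19.3%) had an unadjusted p under 0.05. Automated minus manual ranged from −1.58 to 2.27 over the members, with a median of 0.05. The difference was at least 1 in size for 10 of 112 members. The highest value is that of KCNN4, whose single probe was well above background in neither channel on the manual arrays, so its size is not read here. Both manual arrays shared a slide, so handling and slide cannot be told apart. With normexp background correction the count of calls was 53 of 112 members, beside 35.6% of all genes.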

How the data were processed

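Probe intensity was deposited by the authors as scanner tables of 7 arrays, written by Agilent Feature Extraction 11.5.1.1 per the file headers (version 9.1 per the submitters' processing notes). Per the file headers, the processed signals of both channels used here are background-subtracted and dye-normalized intensity values, with surrogates set near background for dim spots. From them log2(early/late), Cy3 over Cy5, was taken and centred on each array's median autosomal probe. Control spots and spots flagged as non-uniform, population outliers or manual exclusions were dropped, and saturated spots kept. Repeated probes and then the probes of a gene were averaged, and genes named on more than 1 chromosome were left out. Positions are hg19, as deposited.

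K562 (3 arrays) and U2OS (4 arrays), and automated and manual U2OS arrays (2 each), were compared with limma 3.58.1 in R 4.3.3 (lmFit, eBayes, Benjamini-Hochberg over all genes measured on each array). Differences and SEs are on the log2 scale. The model step was tested on simulated data, where it missed most of the shifts that were put in. The number of arrays limits the precision, so a gene that was not called is not shown to be alike between groups.

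Named are the genes of clusters, the 3 earliest and 3 latest per class and line, the 10 largest called differences per direction, the 5 largest U2OS gradients, a list of channels known from disease or from blood, heart and brain, and the 2 largest differences of each list of related genes. Other genes are named where a count turns on them. Some genes that these rules name are not reported here. The members, lists and rules were chosen with earlier results of these data known.

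Alternatives were normexp background correction (offset 50), loess within arrays, equal spread of arrays (MAD), other centring, other spot and probe filters, probe medians, matched probes, slide as a random block, a replicate block, other cluster distances and leaving out each array. Leaving out surrogate values was added after seeing the data. The replicate numbers of manual and automated arrays are names only: deviations of same-numbered arrays correlated at 0.0159 over 23757 genes.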

Additional observations from a re-analysis of the deposited data

Results flagged for a closer look

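SCN7A, the sodium channel relative on chromosome 2, read −1.55 on manual array 2 of U2OS, apart from the other 3 U2OS arrays, which lay between −2.38 and −2.29. The gap to the nearest array was 0.891 of the whole range, above Dixon's critical value at the 95% level. The value is the mean of 8 probes. Among 71 values tested this way it was the only one, where chance gives about 1 in 20.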

How the results depend on the processing

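The count of members called between K562 and U2OS, 22 of 108, fell to 10 with normexp background correction, 13 with loess, 14 with matched probes, 13 of 46 with at least 3 probes, 14 of 76 without surrogate values (added after seeing the data) and 1 of 25 without dim probes; the last 3 test fewer genes by construction, and for the others the cause was not tested. All calls under normexp, loess and matched probes were among the 22. Leaving out single arrays gave 13 to 22, lowest without automated array 2. Over all genes, 2246 calls became 1362 of 4344 with at least 3 probes, 183 of 1931 without dim probes, and 1478 to 2144 without single arrays. The median member in K562, 0.34, became 0.17 with normexp, 0.60 with mean centring, −0.62 without dim probes and −0.66 with at least 3 probes. In U2OS, 0.60 became 0.38 with normexp, 0.13 without surrogates, −1.0 without dim probes and −0.86 with at least 3 probes. Between automated and manual arrays, 0 calls became 53 with normexp (47.3%, against 35.6% of all genes). Without dim probes they became 10 of 80 (12.5%, against 19.7%), and with at least 3 probes 2 of 76 (2.63%, against 3.63%). With the replicate number as a block, a pairing by name only, the count stayed at 0. Slide as a random block, with a correlation of 0.3 estimated over all genes, gave 19 of 108 (17.6%, against 13.8%). For single named genes, 990 values kept their direction and side of the threshold, 86 lost significance and 5 gained it. No called gene changed direction. In 24 genes that did not pass the test, 95 values of K562 minus U2OS crossed 0, none beyond 0.49 in size and with adjusted p (limma) of at least 0.499; the cause was not tested.

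With normexp the values were CACNA1A 0.05, CACNA1S 0.11, CACNA2D4 −0.21, KCNC4 −0.04, KCNH2 0.16, KCNJ10 −0.07, SCN10A −0.14, SCN1A −0.14 and SCN2B 0.03. With surrogates left out they were CACNA1A 0.44, CACNA1E 0.08, CACNA1G 0.09, CACNA1S 0.14, SCN2A 0.21 and SCN4A 0.01. With matched probes K562 minus U2OS was CACNA1A 0.08, CACNA1E 0.00, CACNA2D4 −0.36, KCNC4 −0.18, KCNE1 −0.06, KCNJ3 0.01, SCN2A 0.06 and SCN4A 0.15. With the 6 larger arrays the values were CACNA1A 0.07, CACNA1G 0.11, CACNA1S 0.02, KCNE1 −0.25, KCNH2 0.34, KCNH6 0.02, KCNN4 0.27, SCN10A −0.11 and SCN2B 0.09. With mean centring they were CACNA1E 0.01, CACNA1G 0.07 and SCN2A 0.05. With dim probes left out K562 minus U2OS was CACNA1E 0.19, KCNQ5 0.49, SCN2A 0.38 and SCN4A 0.25. With probe medians the values were CACNA1E 0.01, SCN10A −0.01 and SCN4A 0.05. With equal MAD they were CACNA2D4 −0.01, KCNC4 −0.03, SCN2A 0.06 and SCN3A 0.02. With slide as a block K562 minus U2OS was CACNA2D4 −0.08. With loess the values were KCNC4 −0.05, KCNE1 −0.17, KCNJ10 −0.23, KCNJ9 −0.12, KCNK15 −0.03, KCNQ1 −0.04, SCN10A −0.16, SCN2A 0.11, SCN3A 0.40 and SCN4B −0.35. Leaving out single arrays gave the ranges CACNA1A −0.28 to 0.07, CACNA1E −0.23 to 0.11, CACNA1G −0.29 to 0.17, CACNA1S −0.40 to 0.02, CACNA2D1 −0.29 to 0.86, CACNA2D4 −0.22 to 0.28, KCNC4 −0.21 to 0.41, KCNE1 −0.25 to 0.20, KCNH2 −1.15 to 0.34 and KCNH6 −1.10 to 0.02. Ranges of the other genes were KCNJ10 −0.13 to 0.36, KCNJ9 −0.25 to 0.89, KCNK15 0.00 to 0.45, KCNN4 −1.08 to 0.27, SCN10A −0.11 to 0.09, SCN2A −0.33 to 0.33, SCN2B −1.09 to 0.09, SCN3A −0.82 to 0.49, SCN4A −0.33 to 0.01 and SCN4B −0.14 to 0.58.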
